A study of Mus musculus with 12 samples.

Results

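The 6 genes described here encode enzymes of pathways that supply NADPH: Pgd, Taldo1 and Tkt of the pentose phosphate pathway, the malic enzyme gene Me1, and the isocitrate dehydrogenase genes Idh1 and Idh2. They were chosen as a list of symbols from these pathways, with no threshold on a measured value, and all 6 were found among the 24421 symbols of the count table. The RNA-seq libraries came from KP cells, which were derived from mouse lung adenocarcinoma and whose labelled genotype is KrasLSL-G12D/+; Trp53flox/flox in every group. Cells carried an sgBACH1 guide, giving a CRISPR/Cas9 knockout of the transcription factor BACH1, or the sgCTRL guide. Each kind was transfected for 48 hours with siRNA against FEM1B, the substrate receptor of a ubiquitin ligase (siFEM1B), or with a control siRNA (siCTRL). The 4 groups of 3 libraries were thus sgBACH1 siFEM1B, sgBACH1 siCTRL, sgCTRL siFEM1B and sgCTRL siCTRL, called below knockout cells with FEM1B siRNA, knockout cells with control siRNA, control cells with FEM1B siRNA and control cells with control siRNA. Whether the knockout cells were 1 clone or a pool is not given in the sources used here, so loss of BACH1 and any other difference between the knockout and control cells cannot be told apart. The design text names the libraries of a group biological replicates and gives the effect of losing BACH1 or FEM1B on ferroptosis-related expression as the question.

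NADPH is the electron donor by which cells reduce oxidised glutathione and thioredoxin and build fatty acids and sterols, and through these reactions it bears on ferroptosis, a form of death driven by lipid peroxidation. In the oxidative branch of the pentose phosphate pathway PGD reduces NADP+, while transaldolase (Taldo1) and transketolase (Tkt) make no NADPH themselves and return pentose phosphates to glycolysis. ME1 makes NADPH in the cytosol from malate, IDH1 in the cytosol and peroxisome and IDH2 in the mitochondrion from isocitrate. BACH1 and NRF2 (Nfe2l2) compete, each with a small MAF protein, for antioxidant response elements, and the pentose phosphate genes and Me1 are known targets of NRF2.

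The promoter sequences of the genes whose levels differed most distinctly between groups are shown because BACH1 binds a defined DNA motif. The sequences are from RefSeq on GRCm38.p6 and run from 250 bases before to 50 bases after an annotated start, 5′ to 3′ on the gene's strand. The core motif TGACNNNGC was searched on both strands, as was TGANTCA, which can overlap it. All 6 genes matched by symbol, with 9 windows among them.
Pgd promoter (chr4:149166656-149166955, minus strand): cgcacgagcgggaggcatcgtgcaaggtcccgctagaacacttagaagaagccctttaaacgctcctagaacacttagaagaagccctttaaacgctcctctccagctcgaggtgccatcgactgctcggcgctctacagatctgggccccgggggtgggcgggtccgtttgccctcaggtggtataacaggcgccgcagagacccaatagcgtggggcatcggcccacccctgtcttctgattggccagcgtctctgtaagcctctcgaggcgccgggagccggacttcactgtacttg
Me1 promoter (chr9:86695865-86696164, minus strand): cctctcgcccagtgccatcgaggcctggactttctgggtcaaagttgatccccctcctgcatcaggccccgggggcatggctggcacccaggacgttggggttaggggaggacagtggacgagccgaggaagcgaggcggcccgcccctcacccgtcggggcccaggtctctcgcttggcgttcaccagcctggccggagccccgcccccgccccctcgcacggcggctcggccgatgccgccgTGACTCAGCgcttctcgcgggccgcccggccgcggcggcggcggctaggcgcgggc
Idh1 promoter (chr1:65186430-65186729, minus strand): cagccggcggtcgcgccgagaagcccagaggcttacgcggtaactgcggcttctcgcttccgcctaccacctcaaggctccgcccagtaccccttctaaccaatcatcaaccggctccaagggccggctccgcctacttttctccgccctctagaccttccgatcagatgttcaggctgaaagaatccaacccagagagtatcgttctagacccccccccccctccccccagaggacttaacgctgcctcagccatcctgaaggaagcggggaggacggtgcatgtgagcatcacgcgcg
Capitals mark a match to TGACNNNGC. The Me1 match, TGACTCAGC, spanned the start and overlapped the only TGANTCA match of the 9 windows. No match stood in the Pgd and Idh1 windows printed, nor in the windows of Taldo1, Tkt and Idh2. The other window of Pgd (chr4:149166033-149166332), at an annotated start inside the gene, held TGACATTGC after that start. In all, 2 of the 9 windows held TGACNNNGC and 1 held TGANTCA, against 12.4% and 7.81% of 32851 windows of 300 bases. A match or its absence describes letters in a window and says nothing of binding.

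The libraries held 16539168 to 22196999 counts, so 1 count corresponded to 0.0446 to 0.0603 units of CPM, the count scaled to the library's size. Fem1b, the siRNA target, had 46.2 to 54.4 CPM after FEM1B siRNA against 136 to 141 CPM after control siRNA in knockout cells, and 43.0 to 57.9 CPM against 157 to 167 CPM in control cells. Bach1 had 39.3 to 40.5 CPM with FEM1B siRNA and 27.6 to 31.0 CPM with control siRNA in knockout cells. In control cells it had 37.7 to 44.0 CPM with FEM1B siRNA and 29.5 to 33.6 CPM with control siRNA. Its log2 fold change for knockout was -0.05 with FEM1B siRNA and -0.09 with control siRNA (adjusted p = 0.575 and 0.344). A lesion made by CRISPR/Cas9 need not lower the transcript. Of 9 markers of epithelium and lung adenocarcinoma, Krt8 stood at 1960 to 2224 CPM, while Epcam reached at most 1.56 CPM and the lineage factor Nkx2-1 had no count. The summed level of these markers was 5355 to 5539 CPM and 5179 to 5728 CPM in knockout cells with FEM1B and control siRNA, against 6246 to 6710 CPM and 6908 to 7235 CPM in control cells. The list did not move one way: Krt7 was lower in knockout cells (log2 fold change -1.30 with FEM1B siRNA and -1.96 with control siRNA), while Cdh1 was higher (0.62 and 1.0), and 2 of its 5 genes that passed the filter were called higher and 2 lower with either siRNA. The 5 fibroblast markers summed to 8.58 to 11.1 CPM in the knockout libraries against 18.2 to 24.6 CPM in the control libraries. Nearly all of this was Col1a1, while Pdgfra, at most 0.873 CPM, was called higher in knockout cells with control siRNA (2.73). The 6 leukocyte markers summed to 20.8 to 36.9 CPM against 31.5 to 39.1 CPM, nearly all of it Cd14 with 2 of the 6 at 0, and the 4 endothelial markers to at most 2.14 CPM. Their part in the results was not tested, and in bulk RNA fewer cells of a kind and less RNA per cell cannot be told apart. All 6 genes passed the filter on low counts, as did 13281 symbols in all, and together they took 0.156 to 0.18% of each library's counts.

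Pgd, which encodes an NADPH-producing dehydrogenase of the oxidative branch (chromosome 4, 149149991 to 149166771, minus strand, mm10), was lower after either perturbation than in control cells with control siRNA and lowest after both. It had 184, 175 and 184 CPM in knockout cells with FEM1B siRNA, 216, 225 and 215 CPM in knockout cells given control siRNA, against 204, 203 and 187 CPM in control cells with FEM1B siRNA and 298, 277 and 275 CPM in control cells with control siRNA. No library of control cells with control siRNA overlapped any other group, and the closest neighbours were knockout and control cells with FEM1B siRNA. FEM1B siRNA lowered Pgd by 17.1% in knockout cells (log2 fold change -0.27 ± 0.05, SE, edgeR quasi-likelihood adjusted p = 0.000341) and by 30.0% in control cells (-0.51 ± 0.05, adjusted p = 1.76e-07). Knockout lowered it by 22.8% with control siRNA (-0.37 ± 0.05, adjusted p = 5.57e-06). With FEM1B siRNA the knockout difference was -0.13 ± 0.05 (adjusted p = 0.0414), a call that ended under several settings. It was lost with the replicate number as a block (adjusted p = 0.0549), without a filter on low counts (0.0556), with only the groups compared in the fit (0.082), and without any 1 of 7 libraries: replicates 1, 2 and 3 of knockout cells with FEM1B siRNA (0.0619, 0.121 and 0.0657), replicates 1 and 3 of knockout cells with control siRNA (0.0537 and 0.0527), and replicates 1 and 2 of control cells with FEM1B siRNA (0.126 and 0.131). The difference between the effects of FEM1B siRNA, knockout minus control cells, was 0.24 ± 0.07 (adjusted p = 0.0546), short of the threshold of 0.05. It passed without a filter (0.0481), without replicate 2 of knockout cells with FEM1B siRNA (0.0253) and without replicate 1 of control cells with FEM1B siRNA (0.0443).

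**Figure D1:**
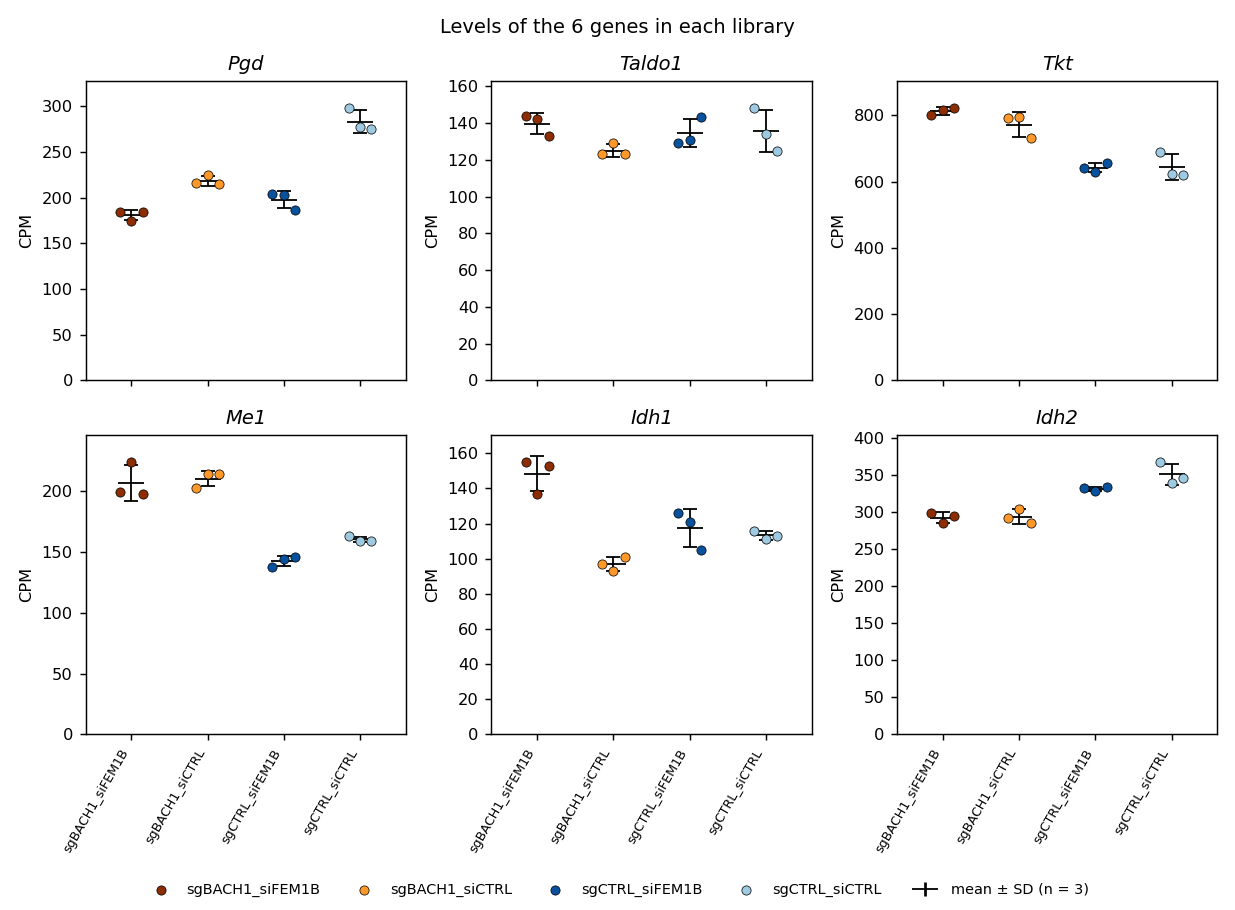
Levels of the 6 genes in CPM (vertical axes, starting at 0) in each of the 12 libraries, by group. Points are libraries and bars give mean ± SD (n = 3); Pgd stands highest in control cells with control siRNA, Tkt and Me1 are higher in both knockout groups, and Idh1 is highest in knockout cells with FEM1B siRNA.

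In the non-oxidative branch, Tkt was higher in knockout cells and Taldo1 passed no test. Tkt (chromosome 14, 30548359 to 30574720, plus strand) had 800, 816 and 821 CPM in knockout cells with FEM1B siRNA, 792, 794 and 730 CPM in knockout cells given control siRNA, against 642, 629 and 655 CPM in control cells with FEM1B siRNA and 690, 624 and 621 CPM in control cells with control siRNA. All 6 knockout libraries lay above all 6 control libraries. Knockout raised Tkt by 26.6% with FEM1B siRNA (log2 fold change 0.34 ± 0.05, adjusted p = 1.61e-05) and by 19.7% with control siRNA (0.26 ± 0.05, adjusted p = 0.000321). FEM1B siRNA gave 0.07 ± 0.05 in knockout cells (95% interval -0.05 to 0.19) and -0.01 ± 0.05 in control cells (-0.13 to 0.11). Taldo1 (chromosome 7, 141392199 to 141402968, plus strand) had 144, 142 and 133 CPM in knockout cells with FEM1B siRNA, 123, 129 and 123 CPM in knockout cells given control siRNA, 129, 131 and 143 CPM in control cells with FEM1B siRNA and 148, 134 and 125 CPM in control cells with control siRNA. Its groups overlapped except between FEM1B and control siRNA in knockout cells. That comparison gave 0.16 ± 0.06 (95% interval 0.01 to 0.30, adjusted p = 0.0513), next to the threshold. It passed without a filter (0.0471), with only the groups compared (0.0322), and without replicate 3 of knockout cells with FEM1B siRNA (0.0421), replicate 1 of control cells with FEM1B siRNA (0.0458), or replicate 1 or 3 of control cells with control siRNA (0.0313 and 0.0436). Its knockout difference with control siRNA, -0.12 ± 0.06 (adjusted p = 0.126), passed without replicate 3 of control cells with control siRNA (-0.18, adjusted p = 0.04).

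Me1 carried the largest knockout difference of the 6 genes as measured, although not once chromosome medians were subtracted (Me1 0.27 against Idh1 0.40 with FEM1B siRNA, and Me1 0.12 against Pgd -0.34 with control siRNA). This gene for the cytosolic malic enzyme (chromosome 9, 86581371 to 86695953, minus strand) had 199, 224 and 198 CPM in knockout cells with FEM1B siRNA, 203, 214 and 214 CPM in knockout cells given control siRNA, against 138, 144 and 146 CPM in control cells with FEM1B siRNA and 163, 159 and 159 CPM in control cells with control siRNA. The knockout libraries lay above the control libraries without overlap, and in control cells the FEM1B siRNA libraries lay below the control siRNA libraries. Knockout raised Me1 by 45.5% with FEM1B siRNA (log2 fold change 0.54 ± 0.05, adjusted p = 7e-08) and by 31.1% with control siRNA (0.39 ± 0.05, adjusted p = 5.18e-06). FEM1B siRNA lowered it by 11.3% in control cells (-0.17 ± 0.05, adjusted p = 0.0137), a call lost without replicate 1 of control cells with FEM1B siRNA (-0.15, adjusted p = 0.0526). In knockout cells FEM1B siRNA gave -0.02 ± 0.05 (95% interval -0.15 to 0.10), and the difference between the FEM1B siRNA effects, 0.15 ± 0.08, did not pass (adjusted p = 0.24). Me1 shares 30 exon bases with the antisense gene A330041J22Rik, whose reads cannot be told apart from its own there if strand was not used in counting.

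The increases of Tkt and Me1 in knockout cells stood on chromosomes whose genes were higher as a whole. The median log2 fold change for knockout against control cells was 0.24 over the genes of chromosome 14 with either siRNA, and 0.29 with FEM1B siRNA and 0.27 with control siRNA over those of chromosome 9. Over the chromosomes of the other 4 genes it lay between -0.04 and 0.08. With each chromosome's median subtracted, Tkt was at 0.11 ± 0.05 with FEM1B siRNA (adjusted p = 0.0991) and 0.02 ± 0.05 with control siRNA (adjusted p = 0.804), and passed neither test. Me1 was at 0.27 ± 0.05 with FEM1B siRNA (adjusted p = 0.000383), which passed, and at 0.12 ± 0.05 with control siRNA (adjusted p = 0.0853), which did not. Pgd was then at -0.09 ± 0.05 with FEM1B siRNA (adjusted p = 0.165) and -0.34 ± 0.05 with control siRNA (adjusted p = 2.57e-05). FEM1B siRNA moved no chromosome's median by more than 0.08 in either kind of cell. Copy number was not measured, and its part in these differences was not tested.

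**Figure D2:**
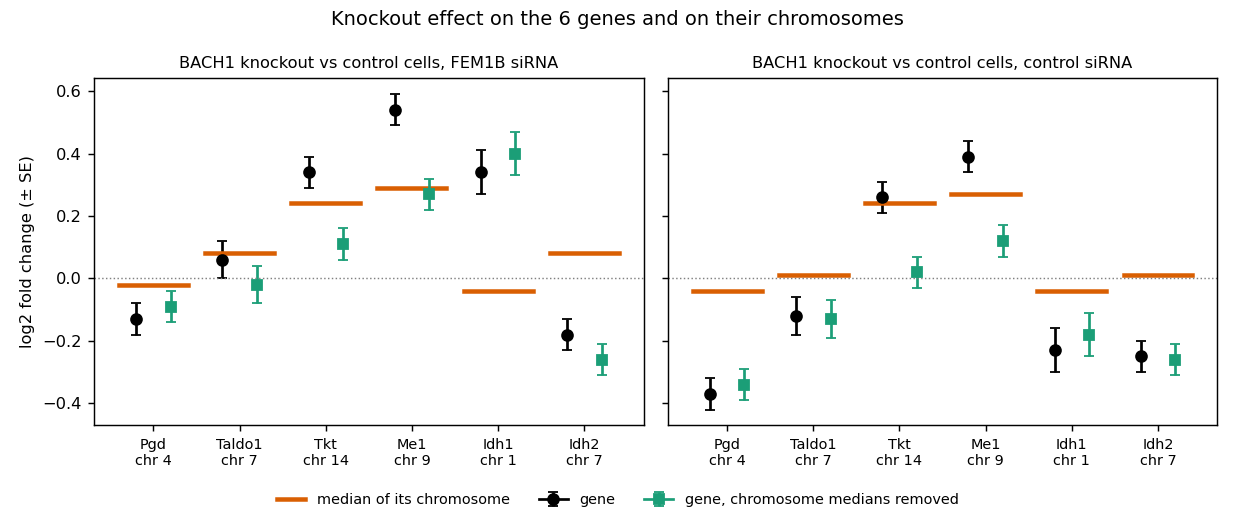
Knockout effect on each of the 6 genes (log2 fold change, knockout against control cells) with FEM1B siRNA and with control siRNA. Black circles give the gene ± SE, orange lines the median of all tested genes on its chromosome, and green squares the gene ± SE with chromosome medians subtracted; Tkt and Me1 sit over raised medians of 0.24 to 0.29.

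Idh1 showed the largest response to FEM1B siRNA among the 6 genes, in knockout cells. This gene for the cytosolic and peroxisomal isocitrate dehydrogenase (chromosome 1, 65158616 to 65186500, minus strand) had 155, 137 and 153 CPM in knockout cells with FEM1B siRNA, 96.8, 93.1 and 101 CPM in knockout cells given control siRNA, against 126, 121 and 105 CPM in control cells with FEM1B siRNA and 116, 111 and 113 CPM in control cells with control siRNA. Knockout cells with FEM1B siRNA lay above every other library, knockout cells with control siRNA lay below every other library, and the 2 groups of control cells overlapped. FEM1B siRNA raised Idh1 by 53.2% in knockout cells (log2 fold change 0.62 ± 0.07, adjusted p = 5.95e-07), against 0.05 ± 0.07 in control cells (95% interval -0.10 to 0.20, adjusted p = 0.56). The difference between these effects was 0.56 ± 0.09 (adjusted p = 0.0018) and passed under every alternative run. Idh1 was 26.5% higher in knockout than in control cells with FEM1B siRNA (0.34 ± 0.07, adjusted p = 0.000231), but with control siRNA knockout cells were lower and it fell by 14.5% (-0.23 ± 0.07, adjusted p = 0.00823). The promoter window of Idh1 printed above held neither motif searched, and this absence says nothing of binding.

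Idh2, the mitochondrial isocitrate dehydrogenase gene (chromosome 7, 80094846 to 80115392, minus strand), was lower in knockout cells with either siRNA. It had 299, 285 and 295 CPM in knockout cells with FEM1B siRNA, 293, 305 and 285 CPM in knockout cells given control siRNA, against 333, 329 and 334 CPM in control cells with FEM1B siRNA and 368, 340 and 346 CPM in control cells with control siRNA. Every knockout library lay below every control library. Knockout lowered Idh2 by 11.7% with FEM1B siRNA (log2 fold change -0.18 ± 0.05, adjusted p = 0.00381) and by 16.1% with control siRNA (-0.25 ± 0.05, adjusted p = 0.000201), and both calls held under every alternative run. FEM1B siRNA gave -0.01 ± 0.05 in knockout cells (95% interval -0.12 to 0.10) and -0.08 ± 0.05 in control cells (-0.19 to 0.03, adjusted p = 0.18), although the control groups did not overlap.

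**Figure D3:**
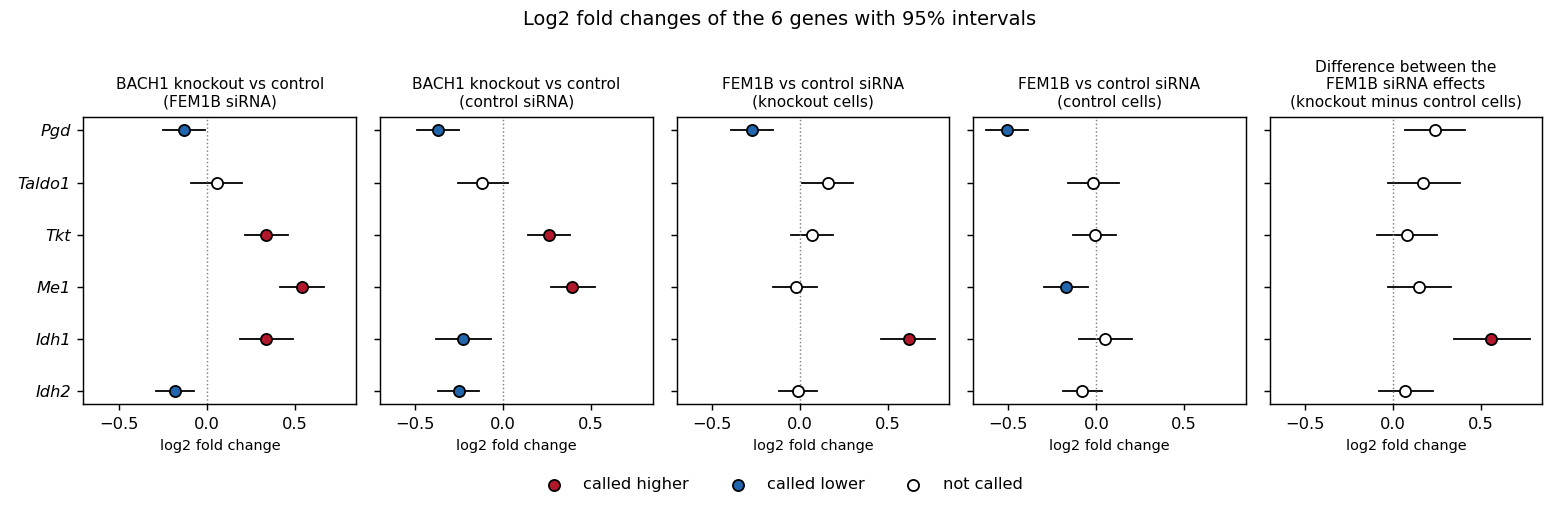
Log2 fold changes of the 6 genes (horizontal axes) in the 4 pairwise comparisons and for the difference between the FEM1B siRNA effects, with 95% intervals. Red marks genes called higher, blue genes called lower and white genes not called at an adjusted p under 0.05; the largest values are 0.62 for Idh1 under FEM1B siRNA in knockout cells and 0.54 for Me1 under knockout with FEM1B siRNA.

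Counted together, the 6 genes did not move in one direction in either knockout comparison. Knockout with FEM1B siRNA raised 3 genes (Tkt, Me1 and Idh1) and lowered 2 (Pgd and Idh2), 5 of 6 where 54.6% of all tested genes were called (28.2% higher and 26.4% lower). Knockout with control siRNA raised 2 (Tkt and Me1) and lowered 3 (Pgd, Idh1 and Idh2), 5 of 6 where 50.5% of all genes were called (24.2% higher and 26.3% lower). FEM1B siRNA in knockout cells raised Idh1 and lowered Pgd, 2 of 6 where 41.7% of all genes were called (21.9% higher and 19.8% lower). In control cells it lowered Pgd and Me1, 2 of 6 where 45.0% were called (22.1% higher and 22.9% lower). The groups did not overlap for 5, 5, 4 and 3 of the 6 genes in these comparisons, against 56.9%, 60.3%, 51.5% and 52.1% of all genes. The difference between the FEM1B siRNA effects was called higher for 1 of 6, Idh1, where 6.08% of all genes were called (3.48% higher and 2.60% lower). Those 807 genes were 462 higher and 345 lower, and the split was 369 and 441 with RLE factors and 510 and 616 by DESeq2. The median log2 fold change of the 6 was 0.20 for knockout with FEM1B siRNA (0.01 over all genes), -0.17 for knockout with control siRNA (-0.02), 0.03 for FEM1B siRNA in knockout cells (0.02) and -0.05 for FEM1B siRNA in control cells (0.00). With chromosome medians subtracted, the counts of called genes were 3 for knockout with FEM1B siRNA (2 higher and 1 lower), where 50.0% of all genes were called (25.7% higher and 24.3% lower), and 3 for knockout with control siRNA, all lower, where 43.6% were called (22.2% higher and 21.4% lower).

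Per length, Tkt and Idh2 were the most abundant of the 6 transcripts in every group. Levels per kilobase of the longest protein-coding transcript (GENCODE M21) were 252 ± 3.36 for Tkt and 168 ± 4.11 for Idh2 in knockout cells with FEM1B siRNA and 240 ± 11.3 and 169 ± 5.75 in knockout cells with control siRNA (CPM per kb, mean ± SD, n = 3). In control cells they were 199 ± 3.96 and 190 ± 1.36 with FEM1B siRNA and 200 ± 12.1 and 201 ± 8.48 with control siRNA. Tkt thus stood above Idh2 beyond the spread in knockout cells, and in control cells with control siRNA the means differed by less than the SD. Me1 and Idh1 were the lowest in each group, at 62.9 and 64.5 CPM per kb in knockout cells with FEM1B siRNA, 63.9 and 42.1 in knockout cells with control siRNA, 43.2 and 51.0 in control cells with FEM1B siRNA and 48.7 and 49.2 in control cells with control siRNA. Pgd and Taldo1 lay between, from 81.7 CPM per kb for Pgd in knockout cells with FEM1B siRNA to 128 CPM per kb for Pgd in control cells with control siRNA. Taldo1 averaged 102, 91.8, 98.6 and 99.7 CPM per kb in knockout cells with FEM1B and control siRNA and control cells with FEM1B and control siRNA. The mean of Pgd was below that of Taldo1 in both FEM1B siRNA groups and above it in both control siRNA groups, by more than the SD of Pgd in each.

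Within a library, the ratio of Tkt to Pgd shifted with both perturbations and that of Tkt to Taldo1 with knockout only. The ratios were not adjusted for chromosome medians, and with these subtracted Tkt passed neither knockout test. The ratio of Tkt to Pgd per length was 2.99, 3.20 and 3.08 in knockout cells with FEM1B siRNA, 2.52, 2.43 and 2.34 in knockout cells with control siRNA, 2.17, 2.13 and 2.41 in control cells with FEM1B siRNA, and 1.6, 1.55 and 1.55 in control cells with control siRNA. It was lowest in the last group and highest in the first, and the only overlap was between knockout cells with control siRNA and control cells with FEM1B siRNA. The ratio of Tkt to Taldo1 was 2.35, 2.44 and 2.61 in knockout cells with FEM1B siRNA and 2.73, 2.60 and 2.5 in knockout cells with control siRNA, against 2.11, 2.02 and 1.94 in control cells with FEM1B siRNA and 1.96, 1.97 and 2.10 in control cells with control siRNA. The 6 knockout libraries lay above the 6 control libraries, and within each kind of cell the siRNA groups overlapped. The ratio of Idh1 to Idh2 was 0.394, 0.364 and 0.393 in knockout cells with FEM1B siRNA, while the other 9 libraries lay between 0.231 and 0.287.

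**Figure D4:**
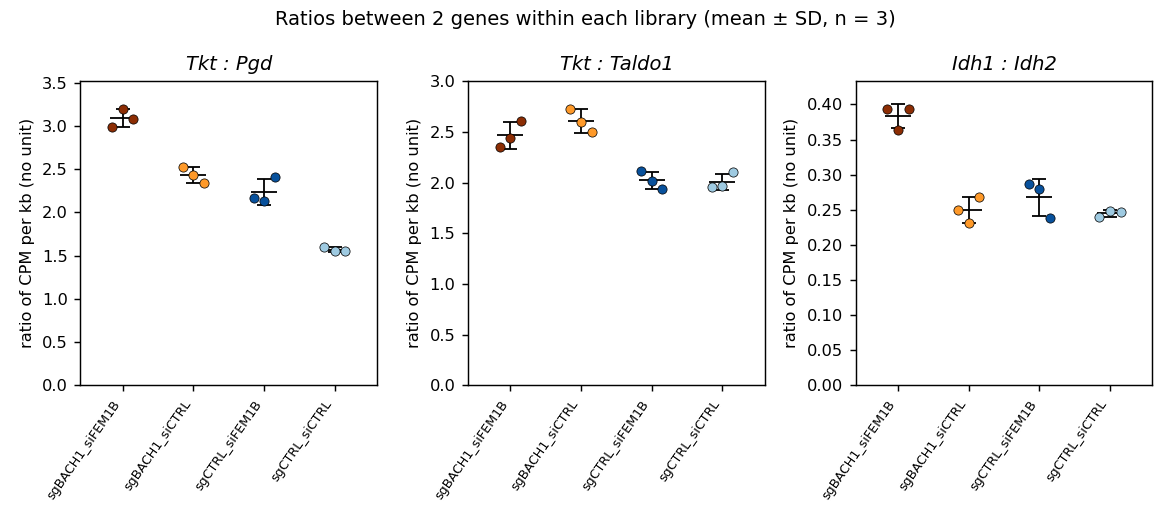
Ratios of CPM per kb (no unit, axes starting at 0) between Tkt and Pgd, Tkt and Taldo1, and Idh1 and Idh2 in each library, by group. Points are libraries and bars mean ± SD (n = 3); knockout cells with FEM1B siRNA have the highest Tkt to Pgd ratios (2.99 to 3.20) and the highest Idh1 to Idh2 ratios (0.364 to 0.394).

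Across the 12 libraries the 6 genes formed no single pattern. Pearson's r of the log2 levels was 0.89 between Tkt and Me1 and 0.70 between Pgd and Idh2, but -0.80 between Tkt and Idh2 and -0.83 between Me1 and Idh2. These values rest on 4 groups of 3 libraries and mostly describe the group means. Among 9911 genes with an average of at least 3 on the log2 CPM scale, those most like Pgd were Ift52 and 1110008L16Rik (both r = 0.981). Those most like Me1 were Emg1 (0.986) and Cited2 (0.985), and those most like Tkt were Tmem223 (0.982) and Rpsa (0.979). Idh2 was most like Asb8 (0.985) and Abhd12 (0.982), Idh1 most like Cd38 (0.963) and Myzap (0.957), and Taldo1 most like Tomm22 (0.905).

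Of 10 other pentose phosphate genes 8 passed the filter. Of all tested genes 54.6% and 50.5% were called for knockout with FEM1B and control siRNA (medians 0.01 and -0.02). For FEM1B siRNA in knockout and control cells 41.7% and 45.0% of all tested genes were called (medians 0.02 and 0.00). Knockout raised 1 and lowered 4 with FEM1B siRNA and lowered 5 with control siRNA (medians -0.09 and -0.27), and FEM1B siRNA raised 2 and lowered 2 in knockout cells and lowered 3 in control cells (medians 0.08 and -0.20). The 2 raised in knockout cells were Pgls and Rpia, and neither was called without replicate 3 of knockout cells with FEM1B siRNA or replicate 3 of those with control siRNA. Knockout lowered Rpia, whose enzyme interconverts ribose and ribulose phosphates, with FEM1B and with control siRNA (-0.28 ± 0.07 and -0.39 ± 0.07), while FEM1B siRNA raised it in knockout cells (0.24, adjusted p = 0.0135) and gave 0.13 in control cells. Knockout also lowered Rpe, an epimerase of the same branch (-0.27 ± 0.06 and -0.21 ± 0.06), and the ribose-phosphate pyrophosphokinase genes Prps1 (-0.39 and -0.45) and Prps2 (-0.38 and -0.50). FEM1B siRNA lowered H6pd, which encodes an enzyme of the endoplasmic reticulum that makes NADPH there, by 0.62 in knockout cells and 1.05 in control cells on the log2 scale (adjusted p = 1.67e-05 and 1.99e-08). Pgls, whose enzyme is the lactonase of the oxidative branch, had responses of opposite sign to FEM1B siRNA, 0.22 in knockout cells and -0.22 in control cells (adjusted p = 0.0135 and 0.0137). The difference was 0.45 (adjusted p = 0.0127) and held under every alternative run, while the call in knockout cells ended without replicate 1 or 3 of knockout cells with FEM1B siRNA or replicate 3 of those with control siRNA (adjusted p up to 0.0793), and that in control cells without replicate 2 of control cells with FEM1B siRNA or replicate 1 of those with control siRNA (up to 0.0821).

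Of 10 further genes for NADP-linked enzymes and NADP supply 9 passed the filter. FEM1B siRNA lowered 6 in knockout cells and 5 in control cells, with medians of -0.34 and -0.28. Of all tested genes 19.8% and 22.9% were called lower in these comparisons, with medians of 0.02 and 0.00. Mthfd1, a cytosolic folate enzyme that can yield NADPH, fell by 0.62 in knockout cells and by 0.58 in control cells on the log2 scale (adjusted p = 9.11e-08 and 1.01e-07). The mitochondrial folate genes Aldh1l2 (-0.74 and -0.32) and Mthfd2 (-0.33 and -0.41) also fell. Knockout with FEM1B siRNA raised 1 and lowered 2 of the 9, where 54.6% of all genes were called. With control siRNA knockout raised 3 and lowered 1, where 50.5% of all genes were called. The 1 raised with FEM1B siRNA was Mthfd2 (0.21, adjusted p = 0.0474), a call lost under 14 of 18 alternatives, and of the 2 lowered Nadk2, a NAD kinase gene, was lost without replicate 1 or 3 of knockout cells with FEM1B siRNA or of control cells with FEM1B siRNA. Of the 3 raised with control siRNA, Me2, a mitochondrial malic enzyme gene (0.26, adjusted p = 0.0298), was lost under 5 of 18 alternatives. These included leaving out any 1 library of knockout cells with control siRNA. With chromosome medians subtracted, knockout with FEM1B siRNA raised another gene, Nnt, the transhydrogenase gene (0.15, adjusted p = 0.045), in place of Mthfd2 and lowered 1. Knockout with control siRNA then raised 3 and lowered none. Among 7 NAD-linked relatives and aconitases, FEM1B siRNA raised 1 and lowered 2 in knockout cells, where 41.7% of all genes were called. In control cells it raised 1 and lowered 4, where 45.0% of all genes were called. The 4 were 2 by DESeq2, with RLE factors, with only the groups compared, without replicate 1 or 3 of control cells with FEM1B siRNA and without replicate 2 or 3 of those with control siRNA, and 1 without replicate 2 of control cells with FEM1B siRNA. The 2 lowered in knockout cells were 1 with the replicate block, without a filter, without replicate 1 or 3 of knockout cells with either siRNA and without replicate 3 of control cells with control siRNA, and without replicate 2 of knockout cells with FEM1B siRNA 2 were raised. Idh3a, a subunit of the NAD-dependent isocitrate dehydrogenase, fell by 0.46 and 0.56, while Mdh1, the cytosolic malate dehydrogenase gene, rose by 0.35 and 0.23. Knockout lowered the mitochondrial Mdh2 (-0.26 with FEM1B siRNA, -0.25 with control siRNA). With FEM1B siRNA knockout raised 2 and lowered 2 of the 7, where 54.6% of all genes were called. With control siRNA it raised 1 and lowered 3, where 50.5% were called. With chromosome medians subtracted these counts were 1 and 2, and none and 2.

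Of 11 genes for enzymes that consume NADPH, knockout raised 1 and lowered 7 with FEM1B siRNA (median -0.31). With control siRNA it raised 1 and lowered 8 (median -0.24). Of all tested genes 28.2% were called higher and 26.4% lower with FEM1B siRNA (median 0.01). With control siRNA 24.2% of all genes were called higher and 26.3% lower (median -0.02). Among the lowered, Aifm2 was near the threshold (-0.18 and -0.19, adjusted p = 0.0487 and 0.0359). Its calls were lost under 12 and 6 of 18 alternatives, but held with chromosome medians subtracted. The Dhcr7 call with control siRNA was lost under 2 of 18. Gsr, the glutathione reductase gene, fell by 0.42 and 0.53 on the log2 scale (adjusted p = 3.12e-06 and 1.2e-07), and Txnrd1, the thioredoxin reductase gene, fell by 0.39 and 0.23. The exception, Cbr1, a carbonyl reductase gene, rose by 3.02 and 2.26. Its level was low throughout, at most 2.91 CPM in knockout cells and at most 0.379 CPM in control cells. With chromosome medians subtracted, knockout raised 2 of the 11 with FEM1B siRNA and 1 with control siRNA. The gene added with FEM1B siRNA was Pycr1, a proline synthesis gene, which was also called without a filter and without replicate 2 of knockout cells with FEM1B siRNA. FEM1B siRNA raised 3 and lowered 3 of the 11 in knockout cells, where 41.7% of all genes were called. In control cells it raised 2 and lowered 4, where 45.0% of all genes were called. The fatty acid synthase gene Fasn was among the raised (0.27 and 0.37). Without replicate 3 of knockout cells with control siRNA the calls of Cbr1, Blvrb and Txnrd2 in knockout cells were lost, leaving 1 raised and 2 lowered. Without replicate 3 of control cells with FEM1B siRNA those of Gsr and Txnrd2 in control cells were lost, leaving 2 lowered. Of 8 regulators, knockout raised 2 and lowered 2 with FEM1B siRNA, where 54.6% of all genes were called. With control siRNA knockout raised 1 and lowered 2, where 50.5% were called. FEM1B siRNA raised 1 and lowered 2 in knockout cells and raised 2 and lowered 2 in control cells. Of all genes 41.7% and 45.0% were called there. The 2 lowered by FEM1B siRNA were Fem1b, the target of the siRNA, and Nfe2l2. Bach1 was raised by FEM1B siRNA in knockout cells (0.44, adjusted p = 0.000133) and in control cells (0.40, adjusted p = 0.000242). Both Bach1 calls held under every alternative run. The other gene raised in control cells was Srebf2 (0.26, adjusted p = 0.00108). Of the knockout calls, Keap1 (0.19 with FEM1B siRNA) was lost without replicate 1 or 3 of knockout cells or replicate 2 of control cells with FEM1B siRNA. Fem1b (-0.22 with control siRNA) was lost without replicate 1 or 2 of knockout cells or replicate 2 or 3 of control cells with control siRNA. Subtracting chromosome medians also ended the Keap1 call (-0.08, adjusted p = 0.362). With control siRNA Keap1 was then called lower (-0.19, adjusted p = 0.0339). The same subtraction ended the Srebf2 call with FEM1B siRNA (from -0.23 to -0.09, adjusted p = 0.21). It added a Fem1b call there (-0.35, adjusted p = 0.00246). Nfe2l2, the gene of NRF2, fell with FEM1B siRNA by 0.93 ± 0.06 in knockout cells and 1.07 ± 0.06 in control cells (adjusted p = 9.72e-10 and 1.07e-10), and its knockout difference was 0.08 with FEM1B siRNA and -0.06 with control siRNA (adjusted p = 0.312 and 0.377). With chromosome medians subtracted the knockout difference of Nfe2l2 with FEM1B siRNA was 0.17 and passed (adjusted p = 0.0246). Tigar, which favours the pentose phosphate pathway over glycolysis, was lower in knockout cells (-0.30 and -0.33), and Srebf1, a regulator of lipid synthesis genes, was higher (0.23 and 0.21).

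**Figure D5:**
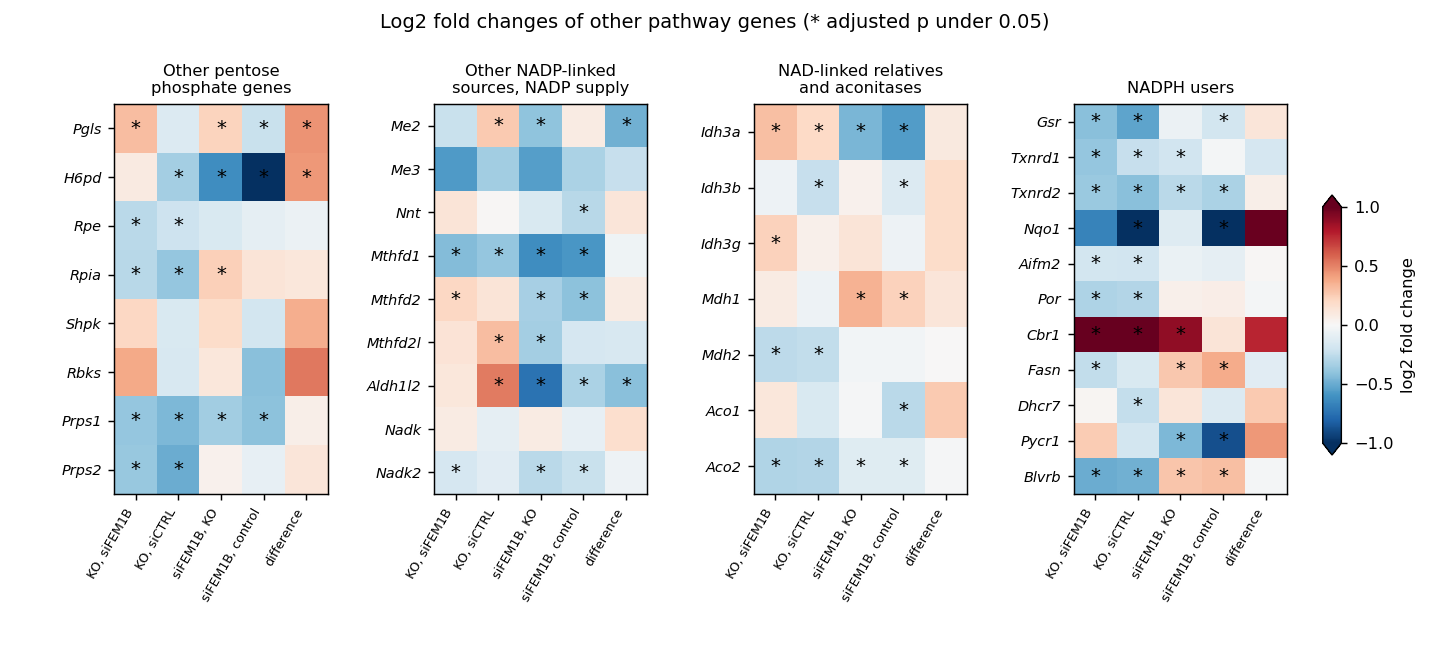
Log2 fold changes (colour, values beyond 1 in either direction share the end colours) of other pathway genes that passed the filter, in 4 lists. Columns are knockout against control cells (KO) with siFEM1B and siCTRL, siFEM1B against siCTRL in knockout and control cells, and the difference between those siFEM1B effects; asterisks mark an adjusted p under 0.05, and H6pd, Mthfd1 and Aldh1l2 are blue under siFEM1B in both kinds of cell.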

How the data were processed

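Total RNA of 12 KP cell samples was turned into libraries with a stranded mRNA kit, according to the labels. The authors deposited raw read counts, as whole numbers for each gene symbol. Their processing notes name the build mm10 and the tools DESeq2 1.26.0, SAMtools 1.9, featureCounts 1.6.4 and Subread. Which annotation and strand setting the counting used is not given in the sources used here; this affects overlapping genes. From the counts, 13281 of 24421 symbols were kept (filterByExpr, minimum count 10), scaled by TMM and tested with edgeR 4.0.16 (R 4.3.3, quasi-likelihood, 1 fit of 4 group means with 8 residual degrees of freedom). P-values were adjusted over all kept genes by Benjamini-Hochberg, with calls at 0.05. CPM values were scaled to the library's total over all symbols times its TMM factor, and log2 CPM for likeness used a prior count of 2. The procedure was tested on simulated counts in which a small part of the genes changed, in control cells with FEM1B siRNA only. That simulation did not cover comparisons in which many genes or whole chromosomes move, nor the difference between FEM1B siRNA effects. The 6 genes and all lists were chosen with earlier results of these data known. Every gene is named by these lists, except neighbours of the 6, added after their values were seen, and the 3 genes most correlated with each. Alternatives were DESeq2 1.42.0, RLE factors, no filter, a replicate block, subtraction of chromosome medians, fits of the compared groups only, and leaving out each library. Some genes of these lists, and an alternative that concerned them, are not reported here. P-values of the main fit set a difference against the spread between libraries within groups only, estimated over the 4 groups with information shared across genes.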

Additional observations from a re-analysis of the deposited data

Results flagged for a closer look

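Genes are given here because the effect of FEM1B siRNA differed between knockout and control cells by the test of the difference itself (edgeR quasi-likelihood, adjusted over all genes). On the log2 scale, knockout minus control cells, the difference was 0.56 for Idh1 among the 6 genes. Among the other pathway genes it was 0.45 for Pgls, 0.43 for H6pd (adjusted p = 0.0494, lost under 12 of 17 alternatives), -0.48 for Me2, a mitochondrial malic enzyme gene (adjusted p = 0.044, lost under 9 of 17), and -0.42 for Aldh1l2 (adjusted p = 0.0161, lost under 1 of 17, without replicate 3 of knockout cells with control siRNA, at 0.0511). H6pd was lowered by FEM1B siRNA in both kinds of cell, so its positive difference is a smaller decrease in knockout cells. No explanation of these differences was tested.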

How the results depend on the processing

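No fold change of the 6 genes that was called reversed under any alternative, and DESeq2 and RLE factors changed none of their 30 calls each. With chromosome medians subtracted, 3 of the 6 genes were called in each knockout comparison, against 5; Tkt ended in both knockout comparisons, Me1 with control siRNA and Pgd with FEM1B siRNA. Leaving out 1 library gave 1 to 2 of the 6 genes called for FEM1B siRNA in control cells, against 2 with all libraries (1 without replicate 1 of control cells with FEM1B siRNA). It gave 1 to 2 for the difference between FEM1B siRNA effects, against 1 (2, Pgd added, without replicate 2 of knockout cells or replicate 1 of control cells with FEM1B siRNA), and 297 to 1859 genes in all, against 807; it was 1859 without replicate 2 of knockout cells with FEM1B siRNA, and 297 without replicate 1, 299 without replicate 3, 298 and 305 without replicates 1 and 3 of knockout cells with control siRNA, 396 without replicate 2 of control cells with FEM1B siRNA and 386 without replicate 3 of control cells with control siRNA. Without a filter on low counts that difference was called for 2 of the 6 genes, Pgd and Idh1, and for 1393 genes. The cause of these shifts was not tested.

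Replicate numbers did not pair the libraries: deviations of same-numbered libraries correlated at -0.11 to 0.08 over the 4 comparisons, and not every library correlated best with its own number. With the replicate block, the Pgd call for knockout with FEM1B siRNA was lost (-0.13, adjusted p = 0.0549), no other call of the 6 genes changed, and 603 genes were called for the difference between FEM1B siRNA effects. Each of the 6 genes stood at 93.1 CPM or more where 1 count is at most 0.0603 CPM. Over kept genes, the chi-square between libraries of a group, per degree of freedom, was 2.54 to 14.2, more than counting error alone gives. The spread of the 6 genes by themselves was not set against counting error. Transcript levels do not measure enzyme activity or NADPH.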
